A study of Rattus norvegicus with 17 samples.

Results

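The genes described here are Drd1 (ENSRNOG00000023688), Drd2 (ENSRNOG00000008428), Adora2a (ENSRNOG00000001302) and Ppp1r1b (ENSRNOG00000028404), which encode a pair of dopamine receptors, an adenosine receptor and a signalling protein that acts below them. They were taken by their Ensembl identifiers as genes known for high expression in the striatum, and all 4 were found among the 26402 genes listed. Their names come with the identifiers given for them, since the table itself holds identifiers only. RNA was sequenced from the left CA1/CA2 hippocampus of 17 rats, with 1 library per rat. The animals were Fischer-344 males aged 12 months, trained in a water maze and killed directly after its probe trial. The ENZ group (7 rats) received Enzastaurin, an inhibitor selective for protein kinase C-β, at 25 mg/kg in 0.4 mL, injected under the skin once a day for 3 days in polyethylene glycol. The vehicle group (10 rats) received polyethylene glycol alone on the same days. The study treated more rats with Enzastaurin than the labels name here, and it gives 7 rats per group for its sequencing comparison. Rats are named by G1 (vehicle) or G2 (ENZ) and the rat's own number.

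Dopamine acts through receptors of a D1 class, which raise cyclic AMP, and a D2 class, which lower it. In the striatum, Drd1 marks the medium spiny neurons of the direct pathway, while Drd2 is found together with the adenosine receptor encoded by Adora2a in those of the indirect pathway. Ppp1r1b encodes DARPP-32, which both kinds of medium spiny neuron hold in quantity and which inhibits protein phosphatase 1 once protein kinase A has phosphorylated it. The hippocampus also receives dopamine and adenosine signals, and its own cells express these genes to a lesser degree than those of the striatum.

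Levels are given as normalized counts, the read counts of a gene divided by 1 size factor per rat. The ENZ rats held between 3880391 and 11531705 reads on genes (median 5182015). Of the vehicle rats, 9 held between 2716777 and 20731523 (median 8710997), while rat G1_80 held 33422. A single read was worth 0.256 to 1.96 normalized counts in the other 16 rats and 103.4 in rat G1_80, so results are given first for 16 rats (9 vehicle and 7 ENZ) and then with that rat included. The 95% Poisson intervals below cover counting error only, and levels are not compared between genes because no gene lengths were used. All 4 genes passed the filter of a median normalized count of at least 5, both over 16 and over 17 rats.

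Drd1 was detected in every rat, from 12 to 63 reads in each of the 16. Its normalized count in the vehicle group was lowest in rat G1_53 at 12.9, had a median of 16.7 and was highest in rat G1_134 at 33.2. In the ENZ group it was lowest in rat G2_125 at 12.4, had a median of 16.95 and was highest in rat G2_62 at 25.2. The groups overlapped widely, and 6 of 7 ENZ rats lay inside the vehicle range. Rats G1_134 and G1_107 were the only vehicle rats above every ENZ rat. Rat G1_134 stood at 1.98 times the median of the 16 rats, just under the 2 times the median taken here for a rat to stand high. Its value rested on 17 reads, with an interval of 19.4 to 53.2 normalized counts, in the library with the fewest reads of the 16. The coefficient of variation over the 16 rats was 29.3%, where counting error alone would give 21.1%.

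Drd2 varied more between rats. In the vehicle group it was lowest in rat G1_143 at 5.09 normalized counts, had a median of 13.7 and was highest in rat G1_53 at 20.8. In the ENZ group it was lowest in rat G2_26 at 6.82, had a median of 15.5 and was highest in rat G2_71 at 29.6. The highest values belonged to ENZ rats G2_71 and G2_62, the lowest to rats of either group, and 8 of 9 vehicle rats lay inside the ENZ range. Rat G2_71 reached 2.03 times the median of the 16 rats (64 reads, interval 22.8 to 37.8 normalized counts) and was the only rat to stand high for any of the 4 genes. Next came rat G2_62, at 1.73 times the median with 19 reads. The coefficient of variation was 43.5% against 23.5% from counting error, and 94.7% of the genes tested had a coefficient as low or lower. This share was 84.4% for Drd1, 81.0% for Adora2a and 68.3% for Ppp1r1b. It was not matched for level, and counting error weighs more on genes with few reads.

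Adora2a showed the clearest separation of the groups, though an incomplete one. In the vehicle group it was lowest in rat G1_53 at 17.5 normalized counts, had a median of 26.2 and was highest in rat G1_107 at 37.6. In the ENZ group it was lowest in rat G2_62 at 14.6, had a median of 19.6 and was highest in rat G2_161 at 23.9. Vehicle rats G1_107, G1_98, G1_89, G1_134 and G1_143 lay above every ENZ rat, and ENZ rats G2_62 and G2_26 lay below every vehicle rat. The other 4 vehicle rats and 5 ENZ rats shared one range. Rat G1_107 was at 1.75 times the median of the 16 rats, with 34 reads and an interval of 26.01 to 52.5 normalized counts. The coefficient of variation was 26.5%, against 19.4% from counting error.

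Ppp1r1b, the DARPP-32 gene downstream of these receptors, was measured with 237 to 1875 reads in each of the 16 rats. In the vehicle group it was lowest in rat G1_53 at 418 normalized counts, had a median of 492 and was highest in rat G1_44 at 831. In the ENZ group it was lowest in rat G2_125 at 353, had a median of 491 and was highest in rat G2_26 at 543. Rat G1_44 stood apart at 1.69 times the median of the 16 rats, and its interval of 793 to 870.1 normalized counts lay above those of the other 15. At the low end, the interval of rat G2_125, 317 to 393 normalized counts, lay below those of 14 rats. The coefficient of variation was 19.5%, and 10.1% without rat G1_44, against 4.10% from counting error. Rat G1_44 had the highest value of the 16 rats in 13.3% of the genes tested, and 5.31% of genes stood at least as far above the median of the other 15 rats in it as Ppp1r1b did.

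**Figure D1:**
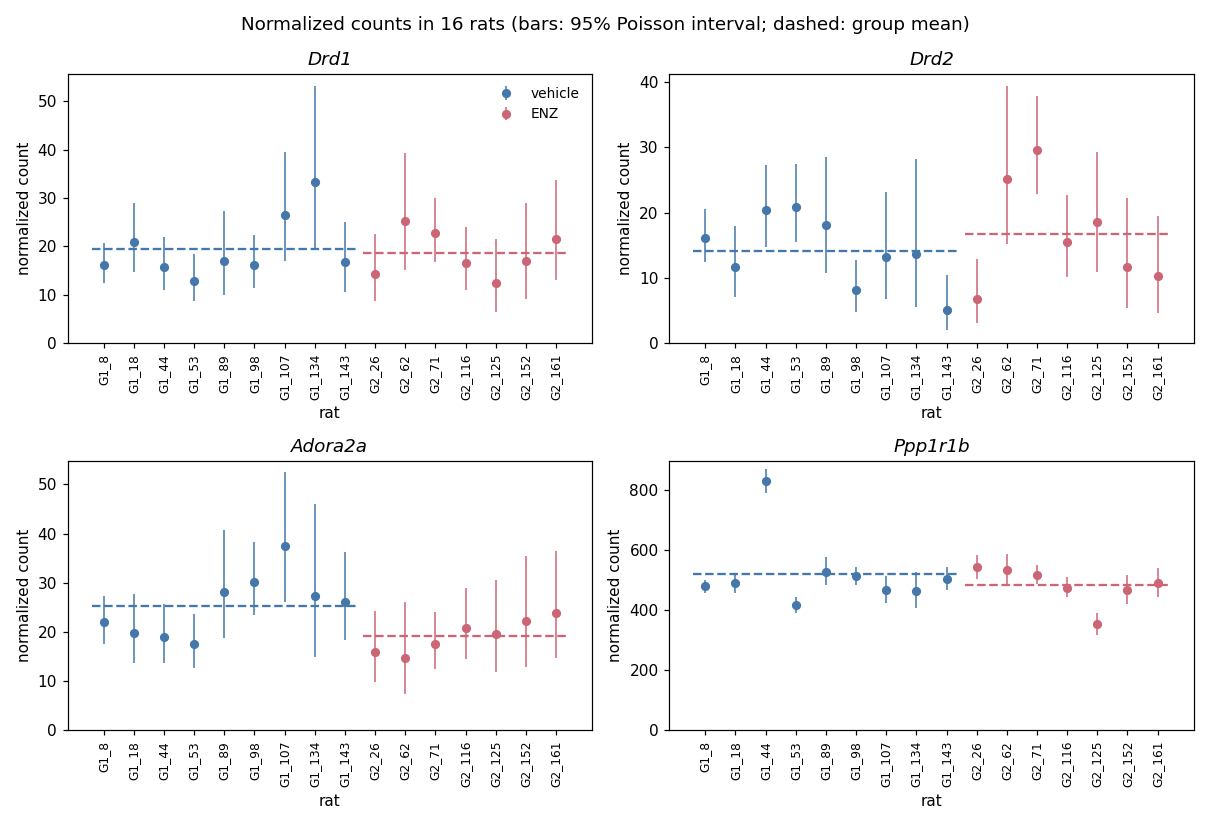
Normalized counts of Drd1, Drd2, Adora2a and Ppp1r1b (vertical axes, each from 0) in each of 16 rats (horizontal axes), vehicle in blue and ENZ in red, with 95% Poisson intervals as bars and group means as dashed lines. Intervals are wide for the receptors and narrow for Ppp1r1b, where vehicle rat G1_44 at 831 lies above all others and ENZ rat G2_125 at 353 is the lowest, its interval just meeting that of rat G1_53.

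With the 16 rats ordered by level, the intervals of neighbours overlapped in 15 of 15 places for each receptor gene. With so few reads per rat, such overlap is likely whatever the levels, and it is not a test of equal levels. For Ppp1r1b they overlapped in 14 of 15 places, the exception being rat G1_44 and the rat below it, G2_26. The interval of the highest rat lay clear of 8 other rats for Drd2, 4 for Adora2a and 1 for Drd1. A different rat was highest for each gene, and no rat was high for all of them. Rat G1_44, highest for Ppp1r1b, was at 0.934 times the median for Drd1, 1.396 for Drd2 and 0.885 for Adora2a. Rat G2_71, highest for Drd2, was at 1.35 times the median for Drd1, 0.821 for Adora2a and 1.05 for Ppp1r1b. Rat G1_143 was lowest for Drd2 at 0.349 times its median, and at 1.22 times the median for Adora2a.

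**Figure D2:**
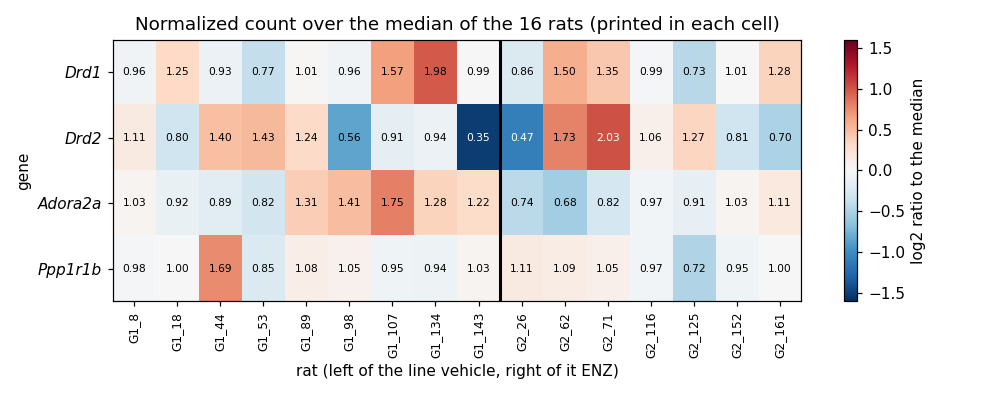
Normalized count of each gene (rows) in each of 16 rats (columns, vehicle left of the line and ENZ right of it) divided by the median of the 16 rats, with the ratio printed in each cell and its log2 as colour. The highest ratios are 1.98 for Drd1 in rat G1_134, 2.03 for Drd2 in rat G2_71, 1.75 for Adora2a in rat G1_107 and 1.69 for Ppp1r1b in rat G1_44, each in a column where the other genes are lower.

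The reads of one receptor over another, taken within a rat, do not depend on the size factor. Reads of Drd2 over Adora2a, which share a cell type in the striatum, ran from 0.194 in rat G1_143 to 1.73 in rat G2_62, with a median of 0.616. This ratio varied more than counting error allows, with a chi-square per degree of freedom of 4.70, where a value near 1 is what counting error alone gives. Reads of Drd1 over Drd2 ran from 0.62 in rat G1_53 to 3.29 in rat G1_143 (chi-square per degree of freedom 2.78). Reads of Drd1 over Adora2a ran from 0.537 in rat G1_98 to 1.73 in rat G2_62, and their chi-square per degree of freedom was 1.24. The ratio of Drd1 to Adora2a thus varied little beyond counting error, while those of Drd2 with either gene varied more.

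Correlations over the 16 rats were computed for 6 pairs of genes on log2(normalized count + 1), with two-sided permutation tests of 100000 resamples and Benjamini-Hochberg adjustment over 12 p-values. The strongest relation was an inverse one of Drd2 and Adora2a, with Pearson's r = -0.389 (permutation p = 0.135, adjusted 0.689) and Spearman's rho = -0.488 (permutation p = 0.0567, adjusted 0.681). It did not pass the threshold of 0.05. Without rats G1_143 and G2_26, the farthest from the median of Drd2, r was -0.649 (permutation p adjusted 0.0701 within that setting). With each value taken from its own group mean r was -0.364 (permutation p adjusted 0.657). Drd1 and Adora2a had r = 0.302 (permutation p = 0.256, adjusted 0.767) and rho = 0.359 (permutation p = 0.172, adjusted 0.689), but without rats G1_134 and G1_107 r was -0.127, so this relation rested on those rats. Drd1 and Drd2 had r = 0.120 (permutation p = 0.658) and rho = -0.0029 (permutation p = 0.996), with r = 0.198 without the same rats. Ppp1r1b had r = 0.085 with Drd1 (permutation p = 0.751), 0.029 with Drd2 (permutation p = 0.916) and -0.125 with Adora2a (permutation p = 0.651). The rho values of Ppp1r1b were 0.032 (permutation p = 0.908), -0.021 (permutation p = 0.943) and -0.265 (permutation p = 0.322) in the same order. Without the farthest rats of the first gene of each pair its r was 0.275, 0.144 and -0.0400, and without rat G1_44 alone it was 0.345, -0.238 and -0.0039. For the r and rho first given over the 16 rats, every adjusted value of the pairs not given above was 0.773 or higher. With each value taken from its own group mean, r of Ppp1r1b was 0.073 with Drd1, 0.062 with Drd2 and -0.277 with Adora2a.

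When rat G1_80 was included, all 6 values of r moved far from 0. Of these, 5 changed sign, that of Drd2 and Adora2a to 0.741, and that of Drd2 and Ppp1r1b kept its sign and went from 0.029 to 0.776. In this rat Drd1 had 3 reads, Ppp1r1b 1 and the other genes 0, so each of its values rests on 3 reads or fewer. Within the 16 rats, the other members were not among the genes most like a member. Of 13852 other genes ordered by r with Drd1, Adora2a came at position 1958, Drd2 at 4603 and Ppp1r1b at 5146, or at 1742 without rat G1_44. Ordered by r with Drd2, Adora2a came at position 12618. The gene most like the mean of the 4 standardized members was ENSRNOG00000014075, with r = 0.853 over the 16 rats, and without rat G1_44 it was ENSRNOG00000017063, with r = 0.883 over 15 rats. Both are the highest r picked from 13849 other genes. The r values of this likeness describe the rats at hand and carry no test.

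The comparison of ENZ with vehicle asks whether transcript levels differed after the inhibitor. With the 16 rats, limma called 0 of the 4 genes at an adjusted p of 0.05, and 0 of all 13853 genes tested (0%). Before adjustment, 1 of the 4 genes, Adora2a, lay under 0.05 by limma, along with 324 of all genes (2.34%). By edgeR it was again Adora2a of the 4, with 338 of the same 13853 genes, and by DESeq2 0 of the 4, with 309 of 20796 genes. Each tool called 0 after adjustment. The ranges of the groups overlapped for all 4 genes, while 1 gene of the 13853 (0.00722%) had ranges that did not. In bulk tissue, fewer cells of a type and less RNA per cell cannot be told apart in any of these differences.

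Drd1 was at 18.6 ± 4.70 normalized counts in ENZ (SD, n = 7) and 19.5 ± 6.46 in vehicle (SD, n = 9). The difference of ENZ minus vehicle on the scale of log2(normalized count + 1) was -0.050, with a standard error of 0.19 and a 95% interval of -0.45 to 0.35 (exact permutation p = 0.799 over 11440 arrangements, limma adjusted p = 0.9998). The direction for Drd1 changed with single rats and with the tool, and edgeR gave 0.0049. Drd2 was at 16.8 ± 8.25 normalized counts in ENZ (SD, n = 7) and 14.1 ± 5.35 in vehicle (SD, n = 9). Its log2 difference was 0.20 with a standard error of 0.30 and a 95% interval of -0.43 to 0.82 (exact permutation p = 0.557, limma adjusted p = 0.9998). Single rats moved the difference of Drd2, which was 0.042 without G2_71, 0.043 without G1_143, 0.079 without G2_62 and 0.12 without G1_98, but 0.37 without G2_26. The 95% intervals of both dopamine receptor genes took in 0, but they also reached -0.45 for Drd1 and 0.82 for Drd2.

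Adora2a was at 19.2 ± 3.37 normalized counts in ENZ (SD, n = 7) and 25.3 ± 6.41 in vehicle (SD, n = 9). The log2 difference was -0.36 with a standard error of 0.16 and a 95% interval of -0.69 to -0.031 (exact permutation p = 0.0358 over 11440 arrangements). After adjustment over 13853 genes it did not pass (limma adjusted p = 0.9998), and 1.46% of the genes tested had a p-value as small or smaller. When each of 16 rats was left out in turn the difference stayed between -0.42 and -0.29, and the unadjusted limma p-value was under 0.05 in 9 of the 16 fits, from 0.0143 to 0.0771. By DESeq2 the difference was -0.36, but its unadjusted p-value of 0.0649 was not under 0.05, while edgeR gave 0.0426. The added count of 1 slightly understates differences of genes at this level.

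Ppp1r1b was at 484 ± 64.2 normalized counts in ENZ (SD, n = 7) and 522 ± 120.2 in vehicle (SD, n = 9). Its log2 difference was -0.096 with a standard error of 0.11 and a 95% interval of -0.33 to 0.14 (exact permutation p = 0.514, limma adjusted p = 0.9998). This difference shrank without either of a pair of rats. Without ENZ rat G2_125 it was -0.023. Without rat G1_44 the vehicle group was at 484 ± 35.0 (SD, n = 8), and the log2 difference was -0.0095 (exact permutation p = 0.924 over 6435 arrangements).

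Depth differed between the libraries, so the differences were also taken within the 8 rats with the most reads and the 8 with the fewest. The deeper rats had 7337860 reads or more (6 vehicle and 2 ENZ), and the shallower rats had 7059925 or fewer (3 vehicle and 5 ENZ). For Adora2a the log2 difference was -0.19 in the deeper rats and -0.67 in the shallower ones. Ppp1r1b was at -0.084 and -0.039, in the same order. Drd1 was at 0.24 and -0.47, and Drd2 at 0.75 and -0.16. The deeper rats include just 2 ENZ rats, 1 of them rat G2_71, the highest for Drd2, so these values cannot bear on depth, whose part in the differences was not tested.

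With rat G1_80 included, limma called 0 of the 4 genes at an adjusted p of 0.05, and 0 of all 13844 genes (0%). Before adjustment, 0 of the 4 genes and 38 of all genes (0.274%) lay under 0.05 by limma, against 270 of all genes by edgeR on the same 17 rats, which called 0 after adjustment. By edgeR, Adora2a was the member under 0.05 before adjustment.
Drd1 stood in that rat at 310.1 normalized counts from 3 reads, with an interval of 63.9 to 906. The lower end is above the 33.2 of the highest other rat. The interval covers counting error only, not error in the size factor of this library, so 3 reads do not show a higher level. Ppp1r1b was at 103.4 from 1 read, with an interval of 2.62 to 576 that takes in every other rat except G1_44. Drd2 and Adora2a had 0 reads, and since 3 reads would be 310.1 normalized counts, their absence there does not show a lower level.

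The limma differences over 17 rats were -0.45 for Drd1 (standard error 0.50), 0.58 for Drd2 (0.54), 0.11 for Adora2a (0.57) and 0.13 for Ppp1r1b (0.29). Their exact permutation p-values over 19448 arrangements were 0.544, 0.358, 0.99 and 0.822 in that order. The adjusted p-values by limma were 0.786, 0.786, 0.923 and 0.821. Adora2a and Ppp1r1b thus changed direction with this single rat. The median difference over all genes moved too, from -0.0043 to 0.16, and relative to that median the members were at -0.61, 0.42, -0.051 and -0.026. The edgeR test on recovered reads, in which a library of few reads has little weight, gave over 17 rats -0.045 for Drd1, 0.26 for Drd2, -0.36 for Adora2a and -0.10 for Ppp1r1b (adjusted p = 0.99997 for each).

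**Figure D3:**
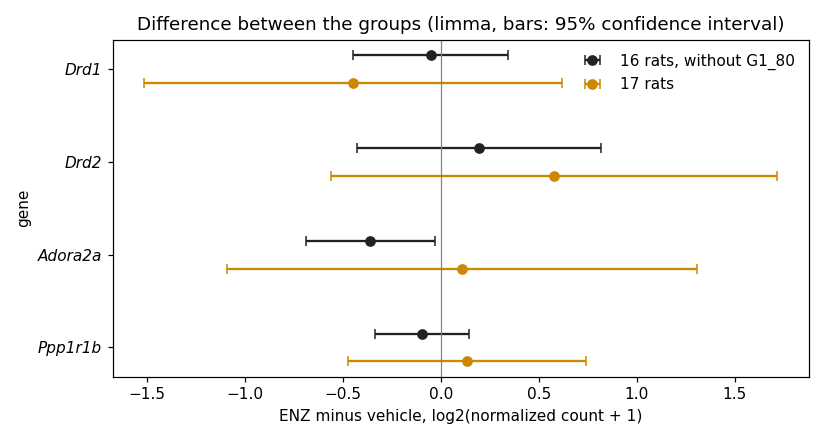
Difference of ENZ minus vehicle in log2(normalized count + 1) (horizontal axis) for each gene (vertical axis), by limma with 95% confidence intervals, over 16 rats without G1_80 (black) and over 17 rats (orange). Over 16 rats the interval of Adora2a, -0.69 to -0.031, is the only one that leaves out 0, and over 17 rats all 4 intervals are wider and take in 0.

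Promoter sequences from RefSeq (assembly GRCr8) were matched by symbol for 2 of the 4 genes, Drd1 and Drd2. Adora2a and Ppp1r1b are named only. In the 250 bases before the start of the gene, on both strands, the letters TATAAA of the TATA box occurred 0 times in either gene and in 12.9% of 33469 promoters. The GC box GGGCGG, bound by Sp1-type factors, occurred 2 times in Drd2 and 0 times in Drd1, and in 30.5% of all promoters. The cyclic AMP response element TGACGTCA occurred 0 times in either gene and in 1.59% of all promoters. The Drd2 window had 66.0% G and C with 14 CpG, and the Drd1 window 51.2% with 4 CpG, against medians of 51.2% and 5 over all promoters. These are descriptions of the letters in the window and were not set against expression.

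Markers of striatal, choroid plexus, thalamic, dentate and CA1/CA2 cells, and the other dopamine and adenosine receptor genes, were not analysed here, because 0 identifiers of the table were matched in the RefSeq gene table used. Whether neighbouring tissue entered the dissection of the rats with high values was therefore not tested.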

How the data were processed

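RNA from the CA1/CA2 region of 17 rats was sequenced as paired ends. Per the methods and the submitters' processing notes, the authors trimmed adapters, aligned the reads to rn5 with STAR (2.4.0a), counted them per gene with featureCounts (1.4.4) and analysed them with DESeq2, after leaving out a pair of samples as outliers by principal components, which the methods do not name. Which annotation release and strand setting they used is not given in the sources used here, so reads of overlapping or antisense genes cannot be told apart. For the deposited signal the authors scaled each rat's gene counts by a size factor of its own. Whole reads were recovered from the value of 1 read, and 100% of values above 0 were whole to within 0.01 of a read. Among the 16 rats without G1_80, no 2 libraries were the same: the closest pair (G1_134 and G2_161) had a chi-square per degree of freedom of 1.79. This value also depends on depth, and rat G1_134 had the fewest reads of the 16.

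Differences of ENZ minus vehicle were fitted in limma 3.58.1 under R 4.3.3, with a mean-variance trend and treatment as the sole term. Values entered as log2(normalized count + 1), genes needed a median of 5 or more, and p-values were adjusted over all of them by Benjamini-Hochberg. Two-sided exact permutation tests, correlations and Poisson intervals used Python 3.11.15, numpy 2.4.6 and scipy 1.17.1. The study tested the rats in squads balanced for treatment, but the squad of each rat is not given in the sources used here, so it was not modelled. The fits and tests were checked on simulated data. Alternatives were other pseudocounts and filters, TMM and quantile normalization, array weights, edgeR 4.0.16, DESeq2 1.42.0 and other sets of rats. edgeR on 17 rats, correlations without rat G1_44 and the subsets by depth were chosen after seeing the data. The named genes are the 4 members and the gene most like their mean over 16 rats, with the one without rat G1_44 beside it. The members and lists were chosen with earlier results of these data known.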

Additional observations from a re-analysis of the deposited data

Results flagged for a closer look

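A value is given here where the highest or lowest rat of a group lay farther from its nearest neighbour, relative to the whole range of the group on the log2 scale, than the 95% critical value of Dixon. Among 12 combinations of a gene and a set of rats (vehicle with and without rat G1_80, and ENZ), such a gap was found in 6, and chance flags about 1 in 20 groups. These sets share rats, and 4 of the gaps belong to vehicle rat G1_80.

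In rat G1_80 Drd1 was the highest of 10 vehicle rats at 310.1 normalized counts, from 3 reads, with rat G1_134 next at 33.2. Drd2 was the lowest there at 0, with rat G1_143 next at 5.09, and Adora2a the lowest at 0, with rat G1_53 next at 17.5. Ppp1r1b was the lowest in that rat at 103.4 normalized counts, from 1 read, with rat G1_53 next at 418.

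Without rat G1_80, the gaps left were both in Ppp1r1b, the gene with the most reads of the 4. Vehicle rat G1_44 was the highest of 9 vehicle rats at 831 normalized counts, from 1796 reads, with rat G1_89 next at 529. ENZ rat G2_125 was the lowest of 7 ENZ rats at 353 normalized counts, from 343 reads, with rat G2_152 next at 468. For Drd1, Drd2 and Adora2a no rat of the 16 lay that far from its group.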

How the results depend on the processing

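The differences of the 4 genes stayed short of an adjusted p of 0.05 in every fit run, with adjusted values from 0.786 upward, and the count of genes past that threshold was 0 by limma, edgeR and DESeq2 in each. Direction was kept in 26 of 26 other planned fits for Drd2, 25 of 26 for Adora2a, 26 of 27 for Ppp1r1b and 19 of 26 for Drd1. These counts hold the fit without rat G1_44 more than once. They leave out the subsets by depth and edgeR on 17 rats, which kept the direction of each gene. With all 17 rats Adora2a was at 0.11 and Ppp1r1b at 0.13, while Drd1 turned to 0.048 with array weights, 0.0049 by edgeR and 0.021 by DESeq2. Leaving out 1 rat at a time gave -0.13 to 0.049 for Drd1, above 0 without G1_107 (0.0096), G1_134 (0.049), G2_26 (0.0011) or G2_125 (0.035). The same gave 0.042 to 0.37 for Drd2, -0.42 to -0.29 for Adora2a and -0.13 to -0.0095 for Ppp1r1b. By depth, Drd1 was at 0.24 in the 8 deepest rats and Drd2 at -0.16 in the 8 shallowest, subsets too small to bear on depth. The count at an unadjusted p under 0.05, 324, was 38 with all 17 rats, 625 with no filter, 201 with a median of at least 50 and 287 to 458 with 1 rat left out; filters change how many genes are tested. A median of at least 50 leaves no value for the receptors. With all 17 rats r was -0.765 for Drd1 and Drd2, -0.865 for Drd1 and Adora2a, -0.846 for Drd1 and Ppp1r1b, 0.741 for Drd2 and Adora2a, 0.776 for Drd2 and Ppp1r1b and 0.860 for Adora2a and Ppp1r1b. Drd1 and Adora2a were at -0.127 without their farthest 2 rats, and without rat G1_44 Ppp1r1b was at -0.238 with Drd2 and 0.345 with Drd1. Other causes were not tested. No correlation passed an adjusted p of 0.05 in any setting run. The highest rat over the median moved by less than 1 SD between rats with another median or TMM scaling. With 7 to 86 reads per rat, depth limits the receptors more than Ppp1r1b. No paired analysis was possible because the groups share no rat numbers.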
